A study of Mus musculus with 9 samples.

Results

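The AP-1 and immediate early genes examined were Fos, Fosb, Fosl1, Fosl2, Jun, Junb, Jund, Egr1, Ier2 and Ier3, which were found by symbol as 10 of the 22972 gene names in the deposited expression files. RNA was sequenced from B16 cells, a mouse melanoma cell line with the genotype label WT, grown on a flexible PDMS film in serum-containing medium and collected at day 3. The 9 libraries fall into 3 groups of 3: unstrained cells (CTL), cells under cyclic straining for 72 h (MS), and cells kept for 72 h in 100 ng/mL blebbistatin, which inhibits myosin (the blebbistatin group). For the last group the study's text gives straining together with blebbistatin, while its sample labels mention only the inhibitor. The replicates are numbered parallel experiments of 1 cell line, so the p-values measure only the spread between such experiments.

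AP-1 is a dimer of a Fos family protein (Fos, Fosb, Fosl1, Fosl2) with a Jun family protein (Jun, Junb, Jund), or of Jun family proteins with each other. It binds regulatory DNA of genes for growth, migration and matrix remodelling, and its parts are made in response to serum, growth factors, stress and mechanical load. Fos, Fosb, Egr1 and Ier2 are classical immediate early genes, which are transcribed within minutes of a stimulus without new protein synthesis and whose mRNA is short-lived. The question behind the comparisons is whether expression differed with straining, and with a myosin inhibitor, at the end of the culture period.

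Fos and Fosb stood apart from the other members, and both did so in 1 library. Fos, the prototype Fos subunit, was at 15.2 FPKM in MS replicate 3 and at 0.527 to 1.49 FPKM in the other 8 libraries. Fosb, its closest relative, was at 4.16 FPKM in the same library and at 0.0717 to 0.365 FPKM elsewhere. FPKM gives fragments per gene after division by gene length and by library size. Egr1 was also highest there, at 0.865 FPKM, and the remaining members were not. As bulk libraries were sequenced, fewer cells expressing a gene and less RNA per cell cannot be told apart.

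The DNA before the start sites of Fos and Fosb is shown because these are the genes that were high in the same library. Each sequence is the 240 bases that end 11 bases before the RefSeq start (GRCm38.p6), for Fos chr12:85473640-85473879 on the plus strand and for Fosb chr7:19310056-19310295 on the minus strand. Capitals mark TGACG, the core of the motif bound by CREB and ATF proteins.
Fos: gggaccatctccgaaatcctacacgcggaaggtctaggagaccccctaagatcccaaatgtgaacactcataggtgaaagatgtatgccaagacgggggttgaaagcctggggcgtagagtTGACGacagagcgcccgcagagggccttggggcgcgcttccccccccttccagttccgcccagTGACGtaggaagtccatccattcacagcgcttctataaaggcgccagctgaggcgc
Fosb: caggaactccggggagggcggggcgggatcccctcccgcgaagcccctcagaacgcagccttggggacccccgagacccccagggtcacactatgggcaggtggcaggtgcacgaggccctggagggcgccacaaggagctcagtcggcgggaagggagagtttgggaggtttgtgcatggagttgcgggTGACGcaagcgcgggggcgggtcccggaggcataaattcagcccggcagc
TGACG began 129 and 66 bases before the start of Fos and 60 bases before that of Fosb. In the RefSeq windows of 250 bases before to 50 after a start, searched on both strands, it was present for Fos, Fosb and Junb among the 7 of 10 members with a window, and in 20.8% of all 32851 windows. TGACG is also part of the full CRE motif TGACGTCA, which was in 1.79% of windows, whereas the AP-1 motif TGACTCA was in 5.20% and the CArG box of serum response factor in 1.63%. None of the 7 member windows held one of these last 3 motifs. DNA farther than 250 bases before a start was not searched, and Egr1, Fosl1 and Ier2 had no window. The absence of a CArG box therefore holds for these windows only. TATAAA was in 13.6% of windows and began 33 bases before the start of Fos. It was also in the Junb window, where it began at the start itself. A match describes the letters only. For Fosb, Junb, Ier3, Jund and Fosl2 the RefSeq start differs from the start of the gene coordinates given below. The windows of Fosb, Junb and Ier3 still contain that gene start, whereas those of Jund and Fosl2 do not. The Jund window (chr8:70697489-70697788) ends before that gene, which begins at 70698949. The Fosl2 window (chr5:32136222-32136521) lies inside its gene.

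Fos (ENSMUSG00000021250, chr12:85473890-85477273 on the plus strand in GRCm38, 4 exons) was listed at 0.527, 1.16 and 1.49 FPKM in CTL replicates 1 to 3. It was at 1.04, 1.09 and 15.2 FPKM in MS and at 1.03, 0.710 and 1.12 FPKM in the blebbistatin group. Of the 3 MS libraries 2 lay within the CTL range, and MS replicate 3 was 10.2-fold above the next highest library, CTL replicate 3. Mean FPKM (± SD, n = 3) was 1.06 ± 0.490 in CTL, 5.78 ± 8.16 in MS and 0.951 ± 0.213 in the blebbistatin group. Single members were tested on log2(FPKM + 1), on which changes of genes near 0 appear smaller than they are. On it the log2 fold change of Fos was 1.02 for MS versus CTL, with a standard error of 0.69 and a 95% interval from -0.54 to 2.58 (adjusted p = 1.00, limma, Benjamini-Hochberg adjusted across 10109 genes). For blebbistatin versus MS it was -1.08, with an interval from -2.64 to 0.48 (adjusted p = 0.897, limma). Without MS replicate 3 these log2 fold changes were 0.033 and -0.088.

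Fosb (ENSMUSG00000003545, chr7:19302696-19310051 on the minus strand, 4 exons) was under the minimum mean of 1 FPKM set for the test across genes. It was at 0.267, 0.0729 and 0.0753 FPKM in CTL, at 0.0717, 0.186 and 4.16 FPKM in MS and at 0.202, 0.365 and 0.0916 FPKM in the blebbistatin group. MS replicate 3 was 11.4-fold above the next highest library, blebbistatin replicate 2, and the other 8 libraries overlapped across groups. By exact permutation (two-sided), p was 0.7 for MS versus CTL and 0.9 for blebbistatin versus MS, where 3 libraries against 3 allow no p under 0.1. The log2 differences of 0.72 and -0.62 became -0.0095 and 0.11 without MS replicate 3.

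The remaining Fos subunits did not show the peak of MS replicate 3. Fosl2 (ENSMUSG00000029135, chr5:32135801-32157842 on the plus strand), which encodes Fra-2, was at 2.04, 1.72 and 2.43 FPKM in CTL. It was at 1.92, 1.80 and 1.79 FPKM in MS and at 2.07, 1.72 and 2.30 FPKM in the blebbistatin group. MS replicate 3 held the lowest MS level, and the groups overlapped. The log2 fold change was -0.11 ± 0.16 (SE) for MS versus CTL (adjusted p = 1.00, limma). Fosl1 (ENSMUSG00000024912, chr19:5447547-5455946 on the plus strand), which encodes Fra-1, was listed at 0 in all 9 libraries. Fosl1 shares 2767 bases with Ccdc85b, a protein-coding gene on the opposite strand that was at a mean of 3.08 FPKM. Whether the counting used strand is not given in the sources used here, so reads of overlapping genes on opposite strands cannot be told apart.

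**Figure D1:**
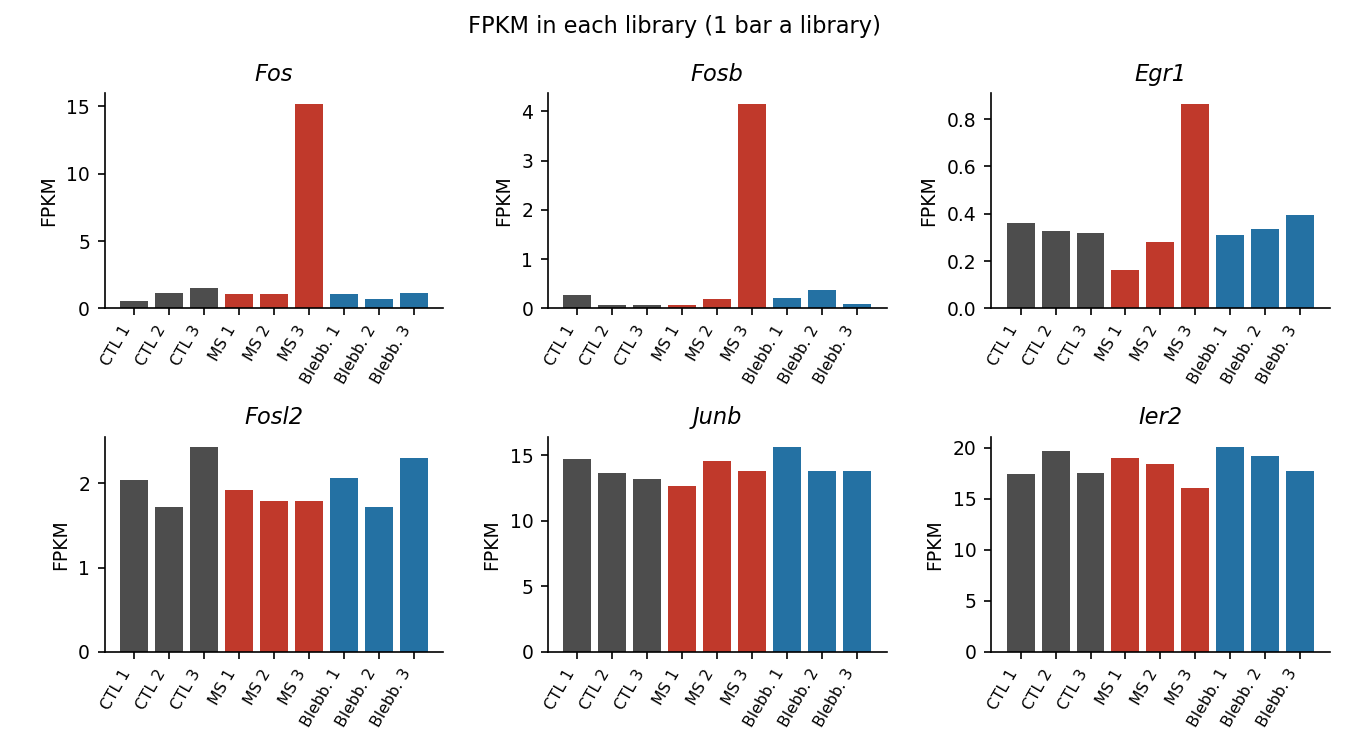
FPKM of 6 members in each of the 9 libraries, 1 bar a library, with CTL in grey, MS in red and the blebbistatin group in blue; each panel has its own axis from 0. Fos reaches 15.2, Fosb 4.16 and Egr1 0.865 FPKM in MS replicate 3, whereas Fosl2, Junb and Ier2 in that library lie inside or just under the range of the other libraries.

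MS replicate 3 was set against the highest of the other 8 libraries for each gene. Of the 10109 genes tested, 1 (0.00989%) was at least 2-fold above every other library, and that gene was Fos. Fosb has a mean too low for that count. Among the 9999 genes that reached 1 FPKM in MS replicate 3, a minimum that Fosb passes only through this library, 2 were at least 2-fold above every other library, Fosb and Fos. Counted in the same way, the other libraries had 0 to 19 such genes, with 19 in MS replicate 1 and 4 in blebbistatin replicate 3, and 0 members. After Fosb and Fos the next genes were Shc4, which encodes a signalling adaptor, at 1.95-fold, the unnamed locus MSTRG.16019 at 1.92-fold and Gtdc1 at 1.71-fold. In the count over the 10109 genes tested the other libraries each had 0 to 4 genes and 0 members. These counts describe single libraries and were made after the level of Fos was seen.

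**Figure D2:**
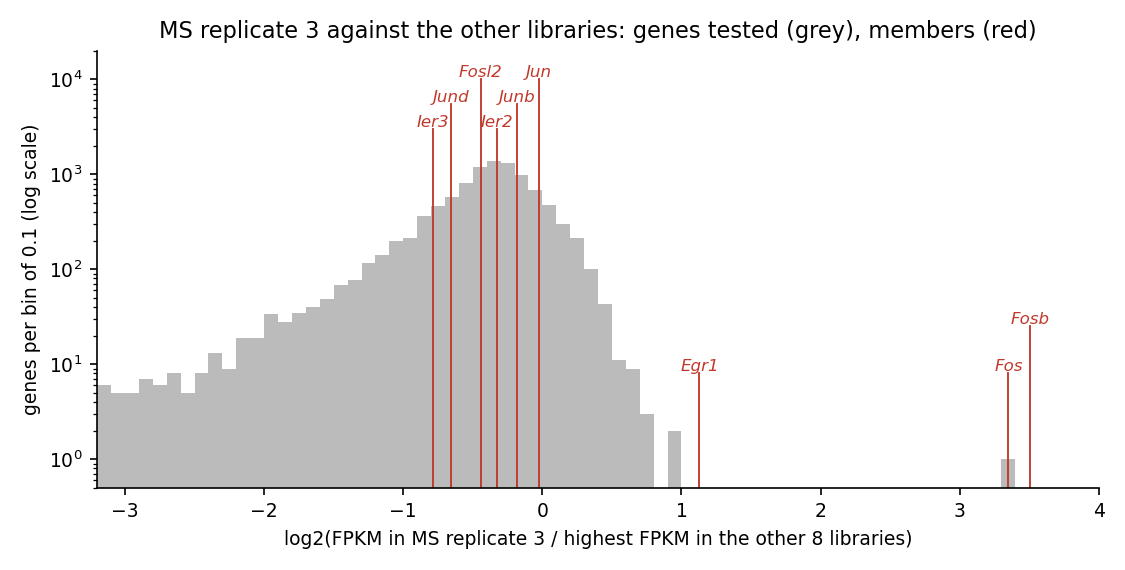
Histogram over the genes tested of the log2 ratio of FPKM in MS replicate 3 to the highest FPKM among the other 8 libraries; the vertical axis, the number of genes per bin of 0.1, is logarithmic. Red lines mark the 9 members above 0: Fos at 3.35 and Fosb at 3.51 stand to the right of the other genes, Egr1 is at 1.13, and the other members are below 0 (Fosb and Egr1 have a mean under 1 FPKM and are not among the genes of the histogram).

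Egr1 (ENSMUSG00000038418, chr18:34859823-34864984 on the plus strand), a zinc finger factor of the early growth response family, was low in all libraries. It was at 0.361, 0.325 and 0.317 FPKM in CTL, at 0.162, 0.282 and 0.865 FPKM in MS and at 0.311, 0.334 and 0.396 FPKM in the blebbistatin group. MS replicate 3 was the highest library, 2.19-fold above the next, and MS replicate 1 the lowest. The exact permutation test gave p = 1 for MS versus CTL, and the log2 difference of 0.075 became -0.13 without MS replicate 3. Its relatives Egr2 and Egr3 were at most 0.0348 FPKM in any library and Egr4 was listed at 0 in all 9.

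Ier2 and Ier3 were the highest members after Jund and encode a nuclear regulator of transcription and a survival protein. Ier2 (ENSMUSG00000053560, chr8:84661331-84662852 on the minus strand, 1 exon) was at 17.4, 19.7 and 17.5 FPKM in CTL. It was at 19.0, 18.4 and 16.01 FPKM in MS and at 20.05, 19.2 and 17.7 FPKM in the blebbistatin group. The lowest of the 9 levels was that of MS replicate 3, the library in which Fos was highest. The log2 fold change was -0.031 ± 0.12 (SE) for MS versus CTL and 0.089 for blebbistatin versus MS (adjusted p = 1.00 and 0.897, limma).

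Ier3 (ENSMUSG00000003541, chr17:35821684-35822923 on the plus strand) had, of the 7 members tested across genes, the largest log2 fold changes after Fos for MS versus CTL and for blebbistatin versus MS. It was at 25.8, 38.9 and 35.1 FPKM in CTL, at 48.5, 43.2 and 28.1 FPKM in MS and at 30.8, 30.2 and 26.9 FPKM in the blebbistatin group. MS replicates 1 and 2 were above the other 7 libraries and MS replicate 3 was inside their range. The log2 fold change was 0.24 ± 0.22 (SE) for MS versus CTL (adjusted p = 1.00, limma). It was -0.40 for blebbistatin versus MS, with a 95% interval from -0.90 to 0.093 (unadjusted p = 0.0998, adjusted p = 0.897, limma). Without MS replicate 3 the values were 0.47 and -0.63, on the same side of the threshold.

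Jund was the highest member in every library, with 55.0 to 121.9 FPKM. Jund (ENSMUSG00000071076, chr8:70698949-70700616 on the plus strand, 1 exon), the Jun protein that is present in resting cells, was at 94.4, 57.4 and 55.0 FPKM in CTL. It was at 55.0, 60.3 and 77.5 FPKM in MS and at 78.7, 121.9 and 58.1 FPKM in the blebbistatin group. Each group held libraries near 55 to 60 FPKM and at least 1 higher library, and the ranges overlapped. The log2 fold change was -0.070 ± 0.29 (SE) for MS versus CTL and 0.37 for blebbistatin versus MS (adjusted p = 1.00 and 0.897, limma). Without blebbistatin replicate 2 the second value was 0.087, and with GC trends taken out of the libraries it was 0.13.

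The high Jund libraries were in part those with high stress response transcripts. Atf4, the main factor of the integrated stress response, was at 337 FPKM in CTL replicate 1, 280 FPKM in MS replicate 3, 319 FPKM in blebbistatin replicate 2 and 126 to 174 FPKM in the other 6 libraries. Ddit3, its target, was at 137, 99.1 and 131 FPKM in these 3 libraries and at 18.5 to 45.7 FPKM elsewhere. Jund in them was at 94.4, 77.5 and 121.9 FPKM. Blebbistatin replicate 1, with 78.7 FPKM of Jund, was the highest of the remaining 6 libraries for Atf4 (174 FPKM against 126 to 143) and for Asns, asparagine synthetase (216 FPKM against 128 to 155), but not for Ddit3 (23.6 FPKM). Fos did not follow this split. It was high in MS replicate 3 and at its lowest levels of all 9 libraries in CTL replicate 1 and blebbistatin replicate 2. Fosb was at 4.16 FPKM in MS replicate 3, 0.267 FPKM in CTL replicate 1 and 0.365 FPKM in blebbistatin replicate 2. In the other 6 libraries Fosb was lower, at 0.0717 to 0.202 FPKM. Jund also has the highest transcript GC content of the members, 67.1%. The correlation across genes of a library's deviation with GC content was 0.45 in CTL replicate 1 and -0.16 in MS replicate 3. It was 0.55 in blebbistatin replicate 1 and 0.54 in blebbistatin replicate 2. In the remaining libraries it was -0.18 and -0.42 in CTL replicates 2 and 3 and -0.64 and 0.057 in MS replicates 1 and 2. It was -0.54 in blebbistatin replicate 3. The part of stress in the Jund and Fosb levels was not tested.

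Jun and Junb, the Jun proteins best known as early response factors, varied little. Jun (ENSMUSG00000052684, chr4:95049034-95052222 on the minus strand, 1 exon) was at 13.2, 10.9 and 13.9 FPKM in CTL. It was at 12.4, 13.3 and 15.9 FPKM in MS and at 14.4, 16.2 and 12.4 FPKM in the blebbistatin group, so that all groups overlapped. Junb (ENSMUSG00000052837, chr8:84974484-84978718 on the minus strand, 1 exon) was at 14.7, 13.7 and 13.2 FPKM in CTL, at 12.7, 14.5 and 13.8 FPKM in MS and at 15.6, 13.8 and 13.8 FPKM in the blebbistatin group. Its highest level was 1.23-fold above its lowest. For MS versus CTL the log2 fold change was 0.12 (95% interval -0.24 to 0.47) for Jun and -0.019 (-0.29 to 0.25) for Junb. For blebbistatin versus MS it was 0.045 (-0.31 to 0.40) for Jun and 0.071 (-0.20 to 0.34) for Junb. Junb shares 351 bases with Prdx2 on the opposite strand, which was at a mean of 180 FPKM, and Jun and Jund overlap the antisense genes Junos and Gm11175.

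**Figure D3:**
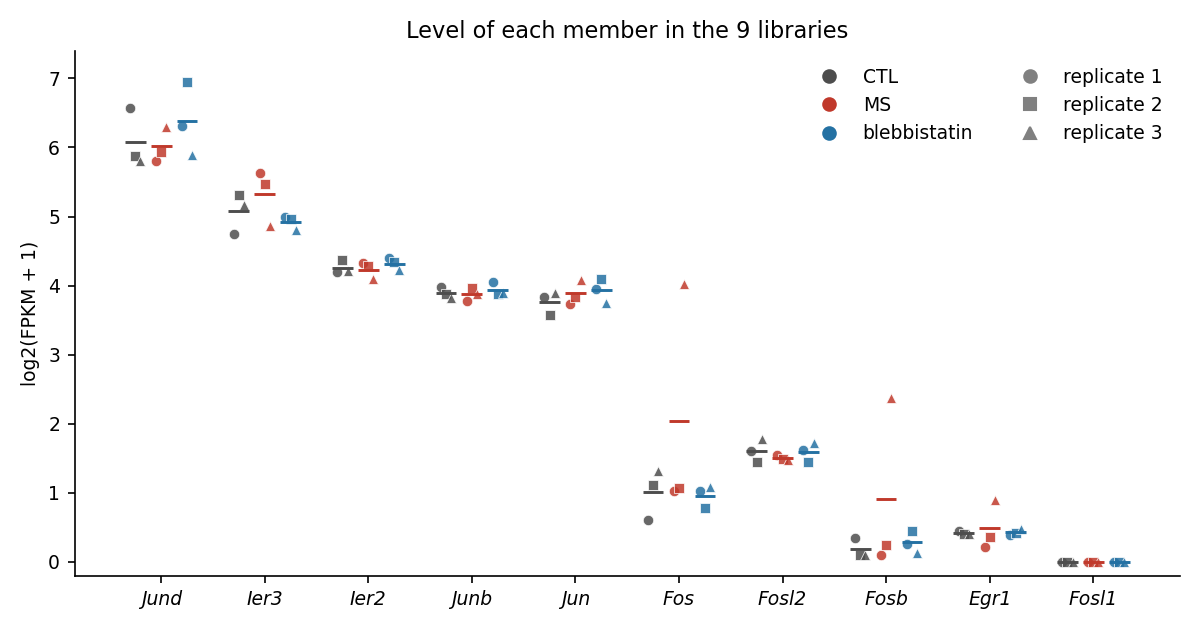
Level of each of the 10 members on the log2(FPKM + 1) scale, ordered by mean FPKM, with 1 point per library, colour for the group, marker shape for the replicate number and a line at the group mean. Jund is highest, Fosl1 is at 0, and MS replicate 3 (red triangle) stands above the other libraries for Fos, Fosb and Egr1.

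By mean FPKM over the 9 libraries the order was Jund (73.2), Ier3 (34.2), Ier2 (18.3), Junb (14.0), Jun (13.6), Fos (2.60), Fosl2 (1.98), Fosb (0.610), Egr1 (0.372) and Fosl1 (0). The level of Ier2 and every member above it in this order did not overlap that of its lower neighbour. Junb was above Jun in 6 of 9 libraries, Fos above Fosl2 in 1 of 9 and Fosb above Egr1 in 2 of 9, so these neighbours were not separated by their spread. The place of Fos above Fosl2 and of Fosb above Egr1 in the order of means came from MS replicate 3.

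Among the genes tested, Fos was one of the most variable and Junb and Ier2 were among the least. The SD of log2(FPKM + 1) over the 9 libraries was 1.03 for Fos, at the 99.4 percentile, and 0.0836 for Junb and 0.0973 for Ier2, at the 1.504 and 3.23 percentiles. It was at the 80.1 percentile for Jund, 68.0 for Ier3, 28.4 for Jun and 9.21 for Fosl2. Without MS replicate 3 the SD of Fos was 0.22, at the 47.4 percentile. The groups accounted for 14.4 to 31.7% of the variance of these 7 genes, beside a median of 12.7% over all genes tested. Means of 3 libraries differ without any group effect too, so a share above that median is no sign of one. The share of Fos, 26.3%, includes MS replicate 3.

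Jund held the largest share of the Fos and Jun families in every library. It made up 60.4 to 78.8% of the summed FPKM of both families, lowest in MS replicate 3 and highest in blebbistatin replicate 2. The Fos family summed to 2.80 to 3.996 FPKM in 8 libraries and to 21.1 FPKM in MS replicate 3, where its share was 16.5% against 1.81 to 4.64% elsewhere. Fos alone was 11.8% and Fosb 3.24% of the total in MS replicate 3. Jun made up 10.4 to 16.2%, Junb 8.91 to 16.1% and Fosl2 1.11 to 2.82%. The Jun family summed to 80.0 to 151.8 FPKM and its highest value was in blebbistatin replicate 2. Over 24 exact two-sided permutation tests of these sums and shares between groups the smallest p was 0.2, the smallest adjusted p was 0.835, and no p under 0.1 was possible.

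**Figure D4:**
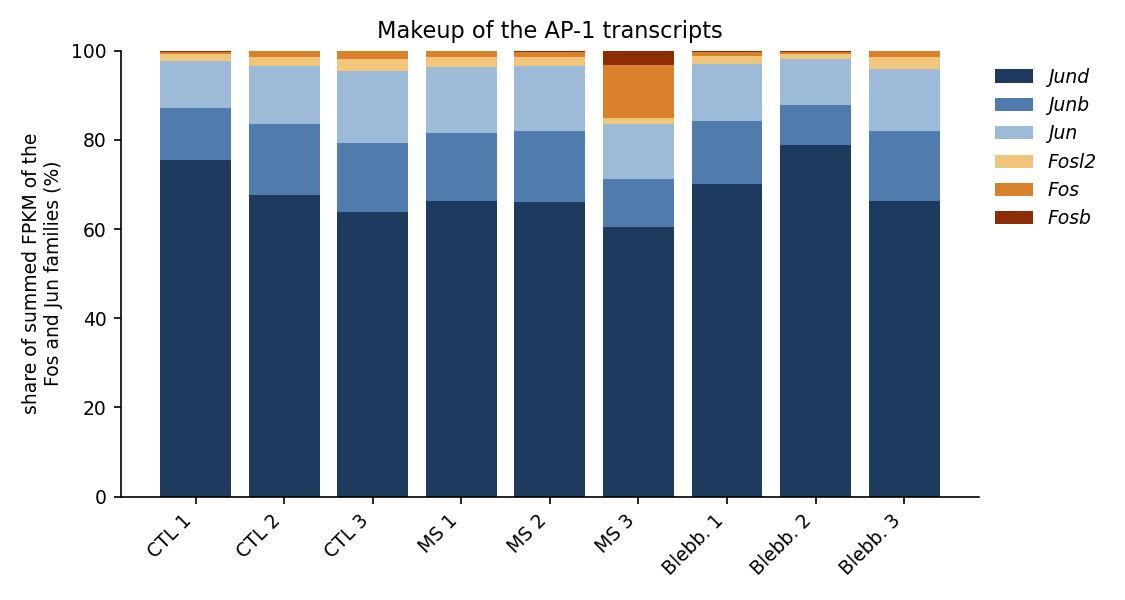
Share of each gene in the summed FPKM of the Fos and Jun families, in percent, 1 stacked bar per library (Fosl1 is at 0). Jund holds 60.4 to 78.8%, and the orange and brown parts, Fos and Fosb, reach 11.8 and 3.24% in MS replicate 3.

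For MS versus CTL, 0 of the 7 tested members passed an adjusted p of 0.05, where 0.0% of all genes did. At an unadjusted p under 0.05 the count was 0 of 7, against 0.158% of all genes (limma), and 0 of 7 had groups that did not overlap, against 3.17% of all genes. For blebbistatin versus MS the counts were again 0 of 7 by each measure, beside 0.0%, 1.25% and 3.73% of all genes in the same order. For blebbistatin versus CTL they were 0 of 7, beside 0.0%, 0.089% and 2.08%. The number of members with a log2 fold change above 0 was 3, 5 and 4 of 7 in the 3 comparisons, and 5008, 4956 and 4648 of 10109 over all genes. After GC trends were taken out of the libraries, this number was 6, 1 and 2 of 7. It was 5, 6 and 5 of 7 with CTL replicate 1, MS replicate 3 and blebbistatin replicate 2 set aside. For blebbistatin versus CTL it was 6 of 7 with quantile normalization, and with 1 library left out it ranged from 3 to 6 there, from 3 to 5 for MS versus CTL and from 4 to 5 for blebbistatin versus MS. The direction of the members as a group therefore depended on the setting. The median log2 fold change was -0.019, 0.071 and 0.052 for the members and -0.0018, -0.0059 and -0.013 for all genes. For blebbistatin versus CTL the members lay between -0.16 (Ier3) and 0.30 (Jund). These comparisons share libraries and are not independent of each other.

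**Figure D5:**
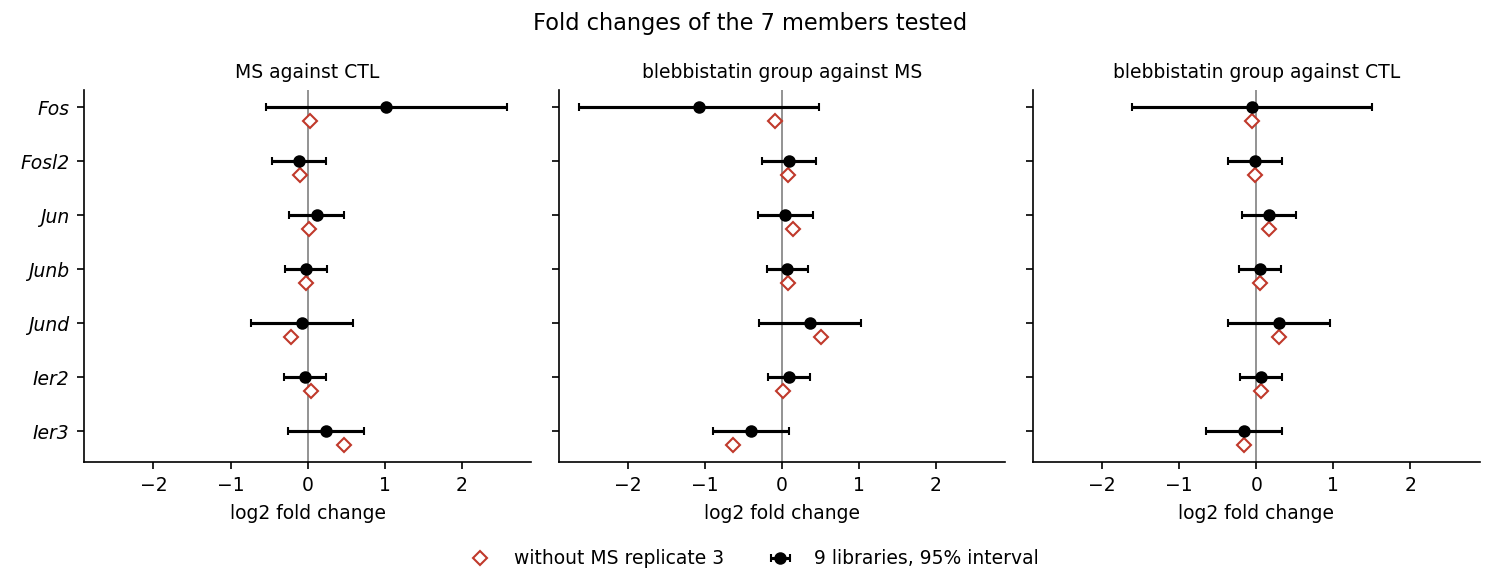
Log2 fold change of the 7 members tested, on the log2(FPKM + 1) scale, in the 3 comparisons: black points with 95% intervals from the limma fit on all 9 libraries, and open red diamonds from the fit without MS replicate 3. All intervals cross 0, and the diamond of Fos falls to 0.033 for MS versus CTL.

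Levels of the members were compared across libraries by correlation of log2(FPKM + 1) in 36 pairs of the 9 members above 0. No pair passed an adjusted p of 0.05, by Pearson or by Spearman. Fos and Fosb had a Pearson r of 0.94 (exact permutation p = 0.11, adjusted p = 0.394, n = 9) and a Spearman rho of -0.20 (exact permutation p = 0.613). Without CTL replicate 1 and MS replicate 3, the libraries farthest from the median of Fos, r was -0.81. MS replicate 3 was highest for both genes. CTL replicate 1 was lowest for Fos, while its Fosb level was exceeded only in MS replicate 3 and blebbistatin replicate 2. The r without MS replicate 3 alone was not computed. Fosb and Egr1 had an r of 0.92 (exact permutation p = 0.0277, adjusted p = 0.391, n = 9) and a rho of 0.60 (exact permutation p = 0.0968), and r was 0.28 without MS replicate 3 and blebbistatin replicate 2. The smallest p in the family was that of Egr1 and Ier3 by rank, with a rho of -0.87 (exact permutation p = 0.00451, adjusted p = 0.109) and an r of -0.59 (exact permutation p = 0.0760, adjusted p = 0.391), which was -0.82 without MS replicates 1 and 3. Fosb and Jund had a rho of 0.85 (exact permutation p = 0.00607, adjusted p = 0.109) and an r of 0.29 (exact permutation p = 0.480, adjusted p = 0.798), which was 0.91 without MS replicate 3 and blebbistatin replicate 2.

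The genes whose pattern over the 9 libraries was most like that of a member were found by Pearson's r among the genes tested. For Fos they were Gtdc1 (0.89), Map2k6 (0.87), a p38 kinase activator, and MSTRG.12039 (0.86), all 3 highest in MS replicate 3. Most of the spread of Fos came from that library (SD 1.03 with it, 0.22 without it), and r was not computed without it. Fosb was not among the genes searched because of its low mean. For Jund they were Slc25a20 (0.99), Pard6a (0.99) and Pgghg (0.99), all highest in blebbistatin replicate 2. For Ier2 they were Plpp2 (0.97), Ndufb8 (0.96) and Ndufs7 (0.96), the last 2 being subunits of respiratory complex I, and for Ier3 Tmem242 (0.93), Cox19 (0.91) and Eef1akmt1 (0.90). Jun was most like Srpr (0.91), 1700030K09Rik (0.90) and Dcaf8 (0.88), Junb like Ppm1m (0.86), Zdhhc7 (0.85) and Rps6ka1 (0.84), and Fosl2 like Rab3ip (0.89), Fkbp5 (0.84) and Surf6 (0.83). All rest on the same 9 libraries.

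No other immediate early gene of the list was 2-fold above the other libraries in MS replicate 3. Of 24 in the files, 2 were at 0 in all libraries and 3 were highest in that library, beside 11.5% of all genes tested. They were Klf4 (1.24-fold above the next library, at 0.366 FPKM), Dusp1 (1.20-fold), a MAP kinase phosphatase, and Mcl1 (1.15-fold). Nr4a1, an orphan nuclear receptor, was at 10.7 FPKM there and at 8.23 to 11.5 FPKM in the other libraries. Myc, a growth factor-induced regulator, was at 10.9 FPKM, near CTL replicate 1 and blebbistatin replicate 2 (9.90 and 11.5 FPKM), against 24.0 to 35.9 FPKM in the other 6. Nr4a3 was at 19.5 FPKM, with 20.4 and 10.8 FPKM in those libraries and 2.79 to 6.32 FPKM in the other 6. Arc was listed at 0 in all 9.

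Across groups, 16 of the other immediate early genes were tested and 0 passed an adjusted p of 0.05 in either direction in any of the 3 comparisons (limma). For MS versus CTL their median log2 fold change was 0.0044, with 8 of 16 above 0. Dusp1 had the highest value, 0.44 ± 0.24 (SE), and Nr4a3 the lowest, -0.51 ± 0.67 (SE). For blebbistatin versus MS the median was 0.11, and Ier5l was at 0.52 (unadjusted p = 0.0144, adjusted p = 0.897, limma) and Klf6 at -0.65.

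AP-1 partners were likewise tested, as 11 of 14 genes of the ATF, MAF, BATF and related families, and 0 passed in any comparison. Atf3, a stress-induced partner of Jun proteins, had the highest value for MS versus CTL, 0.44 ± 0.23 (SE). It was at 3.09, 1.70 and 3.01 FPKM in CTL and at 4.85, 3.06 and 3.64 FPKM in MS, which overlapped. The median over the partners was -0.056 for MS versus CTL and -0.0051 for blebbistatin versus MS.

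The same held for the kinases and factors upstream, 16 of 19 tested, with 0 past the threshold. Srf, the serum response factor that drives Fos and Egr1, had the lowest value of the list for MS versus CTL, -0.22 ± 0.14 (SE). Mapk3, which encodes ERK1, was the highest in level, with a mean of 120 FPKM and a log2 fold change of -0.074 for MS versus CTL. Map2k7, a JNK activator, was at 0.37 for blebbistatin versus MS (unadjusted p = 0.0170, adjusted p = 0.897, limma).

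Known AP-1 targets passed in 0 of 7 tested genes of 14 listed. Their median was -0.072 for MS versus CTL, with 2 of 7 above 0, and 0.11 for blebbistatin versus MS. None of the 10 above 0 was highest in MS replicate 3. Plaur, the urokinase receptor, was at 7.58 FPKM there, near CTL replicate 1 and blebbistatin replicate 2 (8.02 and 8.58 FPKM), against 12.3 to 16.4 FPKM in the other 6 libraries. Ccnd1, cyclin D1, followed the same split, with 28.7, 29.0 and 36.3 FPKM in these 3 libraries and 58.1 to 104.4 FPKM in the other 6. Factors of mRNA decay, 8 of 9 tested, gave 0 calls as well, and Zfp36, which binds short-lived mRNAs, was at 2.25 to 2.89 FPKM in all libraries. The 10 tested of 11 stress response genes gave 0 calls between groups. At an unadjusted p under 0.05 (limma) 1 of 16 other immediate early genes and 2 of 16 upstream genes were counted for blebbistatin versus MS. Over all genes that share was 1.25% in this comparison. In the remaining lists and comparisons 0 genes were counted.

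The cell label was checked with marker genes. All 7 melanocyte and melanoma markers were tested and summed to 7444 to 12933 FPKM. Fibroblast markers summed to at most 1.11 FPKM, with Dcn and Lum listed at 0, and keratinocyte markers to at most 0.055 FPKM. Macrophage markers summed to at most 4.32 FPKM. Of these, Ptprc was listed at 0, while Cd68 was at 1.55 to 2.84 FPKM and Lyz2 at 0.407 to 1.48 FPKM. In MS replicate 3 the highest fold over the next library in any of these 3 lists was 1.03. Between 9529 and 10388 genes reached 1 FPKM per library and FPKM columns summed to 439939 to 484093. In the levels of Atf4 and Ddit3, CTL replicate 1, MS replicate 3 and blebbistatin replicate 2 stood apart from the other libraries. The values without these libraries are given in the closing section. The read depth is unknown, so the precision of a single FPKM, such as that of Fosb, is not known beyond the spread between libraries.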

How the data were processed

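The authors extracted RNA with TRIzol, made libraries with a SMARTER mRNA-Seq kit and sequenced them on an Illumina platform. The submitters' processing notes name the builds GRCm38 and mm10. The aligner, counter and annotation are not given in the sources used here. The deposited unit is FPKM, which the authors scaled by gene length and mapped fragments. No read counts were used and the depth is unknown. For CTL replicate 1 the value column carries a sample name as its header and was read as FPKM.

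Values were used as log2(FPKM + 1). Genes whose mean reached 1 FPKM (10109) were tested in limma 3.58.1 (R 4.3.3) with the 3 groups, a mean-variance trend, two-sided tests and Benjamini-Hochberg adjustment at 0.05. The fit was tested on simulated data. Members under the minimum, and sums and shares, were compared by exact permutation (numpy 2.4.6). Ranks for Spearman's rho were taken with scipy 1.17.1. Coordinates came from GENCODE M21 (GRCm38) and promoter windows from RefSeq (GRCm38.p6). Plots were drawn with matplotlib 3.10.9. The members and gene lists were chosen with earlier results of these data known. The genes named were the members, and in each other list the gene highest in mean FPKM, the largest rise and the largest fall, with the 3 genes nearest to each member. Others named for single libraries were chosen after their values were seen.

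Alternatives were another pseudocount (0.1), a minimum of 5 FPKM or none, median-of-ratios factors (0.9375 to 1.073), quantile normalization, a fit without the trend, a fit on the compared groups alone, a replicate block, removal of each library's GC trend (loess span of 0.5, 9663 genes), each library left out, and 3 libraries set aside.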

Additional observations from a re-analysis of the deposited data

How the results depend on the processing

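No member passed the threshold under any alternative run. Over the alternatives that left out no library singly, 207 single values kept their direction and 30 did not. With CTL replicate 1, MS replicate 3 and blebbistatin replicate 2 set aside together, for MS versus CTL the log2 fold changes were -0.17 for Fos, 0.016 for Junb, 0.035 for Jund, 0.0100 for Ier2 and -0.11 for Egr1. The differences were then -0.423 FPKM for the Fos family sum, 2.05 FPKM for the Jun family sum, -0.327 percentage points for the Fos share and 0.427 for the Jund share. For blebbistatin versus MS they were 0.0043 for Fos, 0.023 for Fosb, 0.15 for Egr1 and 0.348 FPKM for the Fos family sum, and Fosl2 was at 0.058 for blebbistatin versus CTL.

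With the GC trend removed, also together with the replicate block, MS versus CTL was 0.12 for Junb, 0.066 for Jund and 0.10 for Ier2. Blebbistatin versus MS was -0.053 for Fosl2, -0.13 for Jun, -0.15 for Junb and -0.13 for Ier2, with Jund at 0.13 in place of 0.37, and against CTL -0.034 for Junb and -0.023 for Ier2. There, 3 of 21 correlated pairs passed the threshold (Fosl2 with Junb, Junb with Ier2, Ier2 with Ier3). For blebbistatin versus CTL, Fosl2 was at 0.0061 with median-of-ratios factors, and Fos and Fosl2 were at 0.029 and 0.079 with quantile normalization. The cause was not tested for any of these.

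Same-numbered libraries were not consistently alike, as r between their deviations from the group means ran from -0.78 to 0.84. For differently numbered libraries it ran from -0.88 to 0.92. The highest of these was between CTL replicate 1 and blebbistatin replicate 2, which both stood apart, so a smaller effect shared by same-numbered experiments cannot be judged from r. With the replicate block 0 genes passed in each comparison, and at an unadjusted p under 0.05 the counts were 14, 119 and 10 genes (limma), against 16, 126 and 9 without it.

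With 1 library left out, 225 values kept their direction and 18 did not, and all genes past the threshold ranged from 0 to 1 for MS versus CTL and for blebbistatin versus MS (Gm49527, without MS replicate 2). For MS versus CTL the values ranged from -0.063 to 0.031 for Junb, -0.21 to 0.18 for Jund, -0.077 to 0.040 for Ier2, -0.0095 to 1.12 for Fosb, -0.13 to 0.21 for Egr1, -0.210 to 8.84 FPKM for the Fos family sum and -11.4 to 9.74 FPKM for the Jun family sum. For blebbistatin versus MS they ranged from -0.040 to 0.14 for Jun, -1.03 to 0.11 for Fosb, -0.20 to 0.14 for Egr1 and -8.91 to 0.146 FPKM for the Fos family sum. For blebbistatin versus CTL they ranged from -0.26 to 0.096 for Fos, -0.098 to 0.069 for Fosl2, -0.0044 to 0.093 for Junb, -0.013 to 0.032 for Egr1, -0.278 to 0.301 FPKM for the Fos family sum and -0.765 to 6.002 percentage points for the Jund share. The values of Fos, Fosb, Egr1 and the Fos family sum nearest to 0 or past it for MS versus CTL were those without MS replicate 3.

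The depth is unknown and low members such as Fosb and Egr1 have no counting error here. The differences in the Fosb, Fosl2, Jun and Junb shares between groups were not recomputed under these settings.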
